A study of Mus musculus with 6 samples.

Results

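The 40 genes examined here mark macrophages and related white blood cells in fat. They were measured in epididymal white adipose tissue (WAT), the fat pad beside the testis, of mice under timed sleep restriction (TSR) and of control mice. A gene was followed through each probe set, a group of short oligonucleotides on the array, that carried its symbol and no other. Of the 22690 probe sets on the array, 55 met this rule, and they measured 39 of the 40 genes. Spp1 had no probe set under its symbol. Probe sets in the dimmest 35% by mean signal were not tested. This kept 49 of the 55 probe sets and 38 genes, and Trem2 was the only measured gene without a tested probe set. For counts of genes, the brightest tested probe set stood for each gene.

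Male C57BL/6 mice of 9 to 11 weeks, of wild-type genotype, were used per the methods. Control mice were not sleep restricted, and TSR mice were kept awake by gentle handling for 6 h from lights on, on 5 days in a row. Epididymal WAT of both groups was collected at ZT18, the middle of the dark phase, for TSR on the last day. There were 3 control and 3 TSR samples, and 1 array was hybridised with each. Whether a sample was 1 animal or a pool is not stated in the sources used here, so that a p-value here covers just the scatter among samples, which may be technical.

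Macrophages live in fat between the adipocytes, where they engulf dying cells and debris and take up lipid. They descend from embryonic precursors and blood monocytes, and depend on the growth factor CSF1, which acts through the receptor encoded by Csf1r, and on the transcription factor PU.1, encoded by Spi1. Resident macrophages of healthy fat carry endocytic receptors such as CD206 (Mrc1), CD163, LYVE1 and the folate receptor FOLR2. Lipid-associated macrophages, which gather around adipocytes in obesity, carry TREM2, GPNMB, osteopontin (Spp1) and CD11c (Itgax).

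PU.1 binds a purine-rich element around the letters GAGGAA and STAT6, which responds to interleukin-4, a palindrome of TTC and GAA with 4 bases between them. Promoters of 27 of the 39 measured genes were searched, as 35 stretches of the 250 bases before a transcription start (RefSeq, build GRCm38.p6). Members on the chromosome that carries Csf1r and Cd14 were left out, but this chromosome was kept among all promoters. The shares of the members and of all promoters are therefore not strictly like for like. The first motif was searched on both strands, and the second reads the same on both. The letters GAGGAA were present in 16 of these 35 stretches (45.7%), from 14 genes, and in 23.3% of all 32851 promoters of that length. The STAT6-type palindrome was present in 6 of them (17.1%), from 5 genes, and in 5.85% of all. Stretches of the same gene could overlap. The same matches were therefore counted more than once in Clec7a, for both motifs, and in Fcgr3, for GAGGAA. The clock-factor E-box CACGTG was found in 0 of the 35 and in 6.02% of all promoters. Below, 5 promoters are shown, each 5′ to 3′ on the strand of the gene, drawn from gene groups compared here: a resident-type gene (Mrc1), a lysosomal gene of all macrophages (Cd68), the gene with the largest fall (Aif1), an antibody receptor gene (Fcgr1) and a gene of alternative activation (Retnla). All 5 carry GAGGAA, which only 14 of the 27 genes did, so that they do not show how common the match is in a group. Capitals mark GAGGAA or its reverse complement, and in Retnla also the STAT6-type palindrome.
Mrc1, chr2:14229164-14229413, plus strand: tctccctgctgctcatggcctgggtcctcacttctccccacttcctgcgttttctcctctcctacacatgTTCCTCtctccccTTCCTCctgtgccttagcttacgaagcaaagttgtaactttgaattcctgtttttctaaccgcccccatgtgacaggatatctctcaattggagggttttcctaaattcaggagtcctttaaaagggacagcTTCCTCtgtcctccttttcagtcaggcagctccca
Cd68, chr11:69666171-69666420, minus strand: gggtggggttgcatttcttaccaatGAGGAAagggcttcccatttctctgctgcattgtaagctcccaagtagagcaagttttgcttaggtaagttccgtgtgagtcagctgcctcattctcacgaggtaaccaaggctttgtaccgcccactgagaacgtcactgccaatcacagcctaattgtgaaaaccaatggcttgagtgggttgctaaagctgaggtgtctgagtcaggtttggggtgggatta
Aif1, chr17:35176053-35176302, minus strand: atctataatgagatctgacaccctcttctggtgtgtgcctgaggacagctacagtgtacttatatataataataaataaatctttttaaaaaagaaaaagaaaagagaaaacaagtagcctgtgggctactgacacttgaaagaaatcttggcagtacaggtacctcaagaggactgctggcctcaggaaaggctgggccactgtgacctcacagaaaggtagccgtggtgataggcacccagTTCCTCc
Fcgr1, chr3:96293970-96294219, minus strand: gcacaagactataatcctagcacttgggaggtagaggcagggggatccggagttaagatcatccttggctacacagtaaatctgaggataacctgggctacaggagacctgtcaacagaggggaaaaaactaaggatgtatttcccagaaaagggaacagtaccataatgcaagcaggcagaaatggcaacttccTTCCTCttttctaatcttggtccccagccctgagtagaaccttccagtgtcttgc
Retnla, chr16:48842359-48842608, plus strand: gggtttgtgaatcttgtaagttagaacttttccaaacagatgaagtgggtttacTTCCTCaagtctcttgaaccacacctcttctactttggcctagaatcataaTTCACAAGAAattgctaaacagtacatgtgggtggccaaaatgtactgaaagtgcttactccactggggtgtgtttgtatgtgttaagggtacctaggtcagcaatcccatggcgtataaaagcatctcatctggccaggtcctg
In Mrc1 the matches began 180, 167 and 35 bases before the start, written as -180, -167 and -35, and in Aif1 the match began at -7. Cd68 had its match at -225 and Fcgr1 at -55. In Retnla the GAGGAA match lay at -196 and the STAT6-type match at -145. A match or its absence describes these letters in this window only, and binding was not measured.

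Signals of macrophage genes were lower in the TSR samples across nearly the whole list. Of 38 tested genes, 33 fell, 0 rose and 5 did not pass the test (limma with Benjamini-Hochberg adjustment over all probe sets tested, threshold 0.05). Over all 8619 genes tested, 23.0% were called lower and 24.0% higher. Without the filter on dim probe sets, 32 of the 39 measured members were lower and 0 higher, beside 14.4% and 16.2% of all genes. At an unadjusted p under 0.05, 34 members were lower and 0 higher, and the methods' t-test with adjustment called 32 lower and 0 higher. In 36 of 38 genes every TSR array lay below every control array, which was so for 27.6% of all genes, and the opposite order, found in 0 of the 38, for 29.3%. A fall of at least 2-fold was called for 8 members and for 1.40% of all genes. The median log2 fold change was -0.72 over the members and 0.01 over all genes, and 22 of the 38 members lay below the 5th percentile of all genes (-0.62). Among 49 tested probe sets 40 fell and 0 rose, against 21.0% lower and 25.6% higher over all probe sets. In RNA of whole tissue, fewer macrophages and less of these RNAs per macrophage cannot be told apart. Other measures of the whole samples, given below, also moved with the groups, and their part in the fall was not tested.

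**Figure D1:**
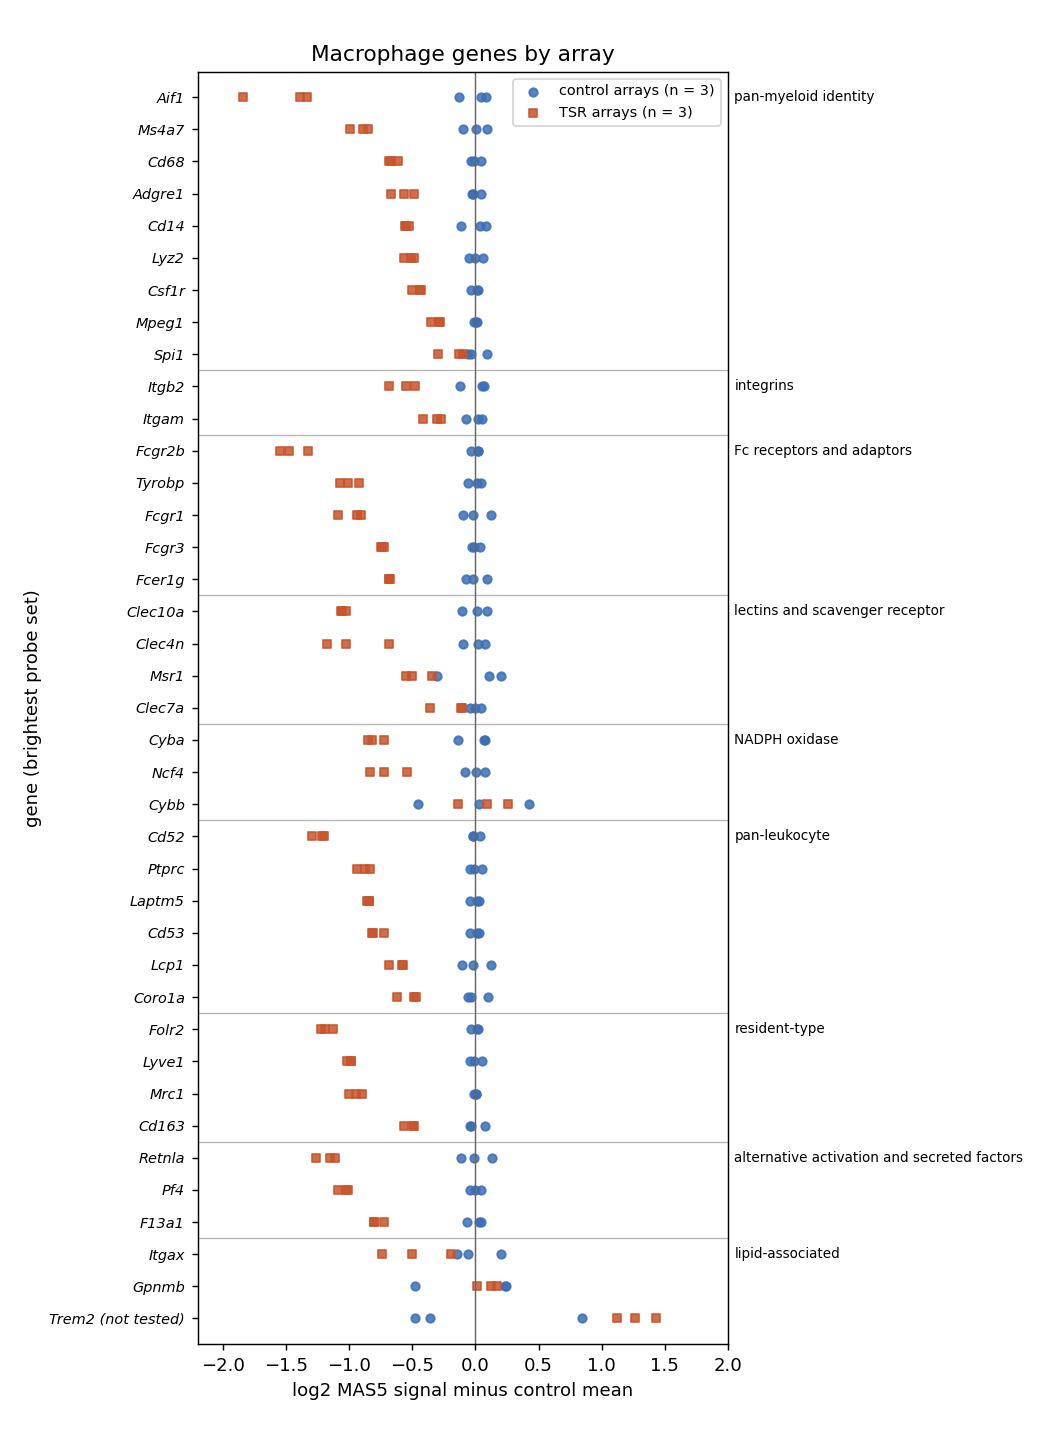
Log2 MAS5 signal minus the control mean (horizontal axis) of 38 tested macrophage genes and Trem2, each by its brightest probe set, in 3 control arrays (circles) and 3 TSR arrays (squares), grouped by role. In all tested genes but Cybb and Gpnmb the squares lie to the left of the circles, and Trem2 is the only gene with all squares to the right.

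Among the genes of macrophage identity, 8 of 9 fell. Csf1r, which encodes the receptor for CSF1, had signals of 5784, 5768 and 5589 in the control arrays and 4238, 4218 and 4034 in the TSR arrays. The groups did not overlap, and the fall was moderate (log2 fold change -0.46, standard error 0.04, adjusted p = 5.1e-05). Adgre1 encodes F4/80, the classical surface marker of mouse macrophages, and its signals were 839, 803 and 799 in the control arrays and 579.8, 512 and 549.8 in the TSR arrays. It fell by a factor of 1.49 (log2 fold change -0.57, standard error 0.06, adjusted p = 1.0e-04). Cd68, a lysosomal glycoprotein gene, gave 694, 718 and 682 in the control arrays and 440.2, 458 and 435 in the TSR arrays, with all TSR values below the control values (log2 fold change -0.65). Lyz2, the lysozyme gene of macrophages and neutrophils, was at 7779, 8393 and 8022 in the control arrays and 5445, 5665 and 5762 in the TSR arrays (log2 fold change -0.52).

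Cd14, a co-receptor for bacterial lipopolysaccharide, fell from a control mean of 1298 ± 89.6 to 887 ± 10.5 after TSR (± SD, n = 3 each), by a factor of 1.46 (adjusted p = 1.0e-04 from limma). Mpeg1 encodes perforin-2, a pore-forming protein of phagocytes, and had the smallest fall of the identity genes, from 799 ± 7.25 to 646 ± 18.6 (log2 fold change -0.31, adjusted p = 9.8e-04 from limma). Ms4a7, a membrane protein gene of mature macrophages, went from 432 ± 28.6 to 229 ± 11.4 (log2 fold change -0.91). The largest fall of all members was that of Aif1, which encodes the actin-binding protein IBA1, with signals of 255, 296 and 288 in the control arrays and 78.0, 111 and 107 in the TSR arrays. The highest TSR value of Aif1 was below the lowest control value, and the fall was by a factor of 2.84 (log2 fold change -1.52, standard error 0.15, adjusted p = 5.9e-05). Spi1, the gene of PU.1, did not pass the test. Its signals were 106, 97.3 and 96.0 in the control arrays and 81.3, 91.2 and 93.1 in the TSR arrays, so that the groups lay side by side without overlap (log2 fold change -0.17, adjusted p = 0.29 from limma).

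Receptors for antibody and their signalling adaptors fell as a group, 5 of 5. Fcgr2b, the inhibitory IgG receptor gene, had signals of 1369, 1426 and 1423 in the control arrays and 479.7, 561 and 506 in the TSR arrays by its brightest probe set. No TSR array reached the control range (log2 fold change -1.45, standard error 0.06, adjusted p = 7.6e-07). Its 3 other probe sets fell less, with log2 fold changes between -0.98 and -0.85. The activating receptor genes Fcgr1, for IgG of high affinity, and Fcgr3, for IgG of low affinity, fell from 142 ± 11.2 to 72.1 ± 4.74 and from 1129 ± 26.6 to 678 ± 6.27. Fcgr2b and Fcgr3 encode closely related extracellular domains, and sharing of labelled RNA between their probe sets was not tested. Tyrobp encodes DAP12, the adaptor through which TREM2 and other myeloid receptors signal. Its signals were 2180.5, 2332 and 2291 in the control arrays and 1125, 1197 and 1079 in the TSR arrays, with every TSR array far below control (standard error of the log2 fold change 0.05, adjusted p = 2.1e-06 from limma). Fcer1g, the gamma chain that serves the activating Fc receptors, was at 1260.1, 1169 and 1122 in the control arrays and 739, 737 and 734 in the TSR arrays (log2 fold change -0.68). The TSR values of Fcer1g lay close together, and all were below control.

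The integrin genes Itgb2 and Itgam differed in their call. Itgb2 encodes CD18, the chain shared by these integrins, and fell from 804 ± 57.8 to 541 ± 38.7 (log2 fold change -0.57, standard error 0.07, adjusted p = 3.3e-04). Itgam, which encodes CD11b, was dim, with signals of 75.5, 68.9 and 74.0 in the control arrays and 60.1, 58.9 and 54.6 in the TSR arrays, and did not pass (log2 fold change -0.33, adjusted p = 0.093 from limma). All TSR values of Itgam lay below the control values, and it was called after quantile normalization (adjusted p = 0.040), after median centring (0.039) and in the methods' t-test (0.020 on linear signals).

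Of the lectin and scavenger receptor genes, 3 of 4 fell. Clec10a, a galactose-binding lectin gene of alternatively activated macrophages, had signals of 1626, 1721 and 1496 in the control arrays and 772, 791 and 774 in the TSR arrays. The TSR values were close together and near a 2-fold lower level than control (log2 fold change -1.05, standard error 0.06, adjusted p = 2.4e-06). Clec4n encodes Dectin-2, which binds fungal mannans, and fell from 96.0 ± 5.96 to 49.7 ± 8.86 by the tested probe set (log2 fold change -0.96, adjusted p = 0.0019 from limma). Msr1, a scavenger receptor gene for modified lipoproteins, fell from 212 ± 37.8 to 152 ± 11.4 (log2 fold change -0.46, adjusted p = 0.024 from limma), but this call was lost in the methods' t-test (adjusted p = 0.12 on linear signals). It was also lost when control replicate 1 or 2, or TSR replicate 2 or 3, was left out (adjusted p 0.064 to 0.087). Clec7a, which encodes the beta-glucan receptor Dectin-1, had signals of 351, 331 and 341 in the control arrays and 317, 266 and 315 in the TSR arrays and did not pass (log2 fold change -0.19, adjusted p = 0.097 from limma). It was called lower after quantile normalization (adjusted p = 0.024) and median centring (0.013).

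The phagocyte NADPH oxidase makes superoxide from a membrane pair, gp91phox (Cybb) and p22phox (Cyba), and cytosolic subunits such as p40phox (Ncf4). Cyba fell, with signals of 1510.3, 1524 and 1310.2 in the control arrays and 817, 873 and 799 in the TSR arrays (log2 fold change -0.80, standard error 0.07, adjusted p = 3.0e-05). Ncf4 fell as well, from 186 ± 10.2 to 115 ± 12.1 (log2 fold change -0.70). Cybb was near the lowest signal kept for testing and gave 58.6, 31.7 and 44.6 in the control arrays and 39.6, 46.4 and 52.2 in the TSR arrays. The control values of Cybb spanned the TSR values, and no change was called (log2 fold change 0.07, adjusted p = 0.84 from limma).

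Genes shared by most white blood cells all fell, 6 of 6. Ptprc encodes CD45, the phosphatase on all nucleated blood cells, and had signals of 1373, 1288 and 1319 in the control arrays and 742, 694 and 725 in the TSR arrays. Every TSR array was well below control (log2 fold change -0.88, standard error 0.05, adjusted p = 2.8e-06). Cd52, a short surface glycoprotein gene of lymphocytes and myeloid cells, fell from 1462 ± 32.8 to 621 ± 21.4 (mean ± SD of 3 arrays each, log2 fold change -1.24, adjusted p = 4.3e-07 from limma). The tetraspanin gene Cd53 fell from 783 ± 21.6 to 455 ± 16.6, and Laptm5, a lysosomal membrane protein gene of blood cells, from 1469 ± 38.1 to 815 ± 6.59. Coro1a and Lcp1 encode coronin-1A and L-plastin, which organise actin in leukocytes. They fell from 487 ± 29.3 to 338 ± 19.5 and from 665 ± 52.6 to 434 ± 18.1.

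All 4 resident-type genes fell. Mrc1, the gene of the mannose receptor CD206, had signals of 2424, 2459.9 and 2462 in the control arrays and 1274, 1311 and 1226 in the TSR arrays. The spread within a group was small beside the difference (log2 fold change -0.95, standard error 0.04, adjusted p = 8.9e-07). Lyve1 encodes a hyaluronan receptor of resident macrophages and lymphatic vessels, and was at 1747, 1714 and 1829 in the control arrays and 889, 893 and 873 in the TSR arrays. This was a factor of 1.99 (log2 fold change -0.99, standard error 0.04, adjusted p = 8.4e-07), and its dimmer probe set also fell (log2 fold change -0.92). Folr2, the folate receptor beta gene, had the largest fall of the group, with signals of 1261, 1272 and 1222 in the control arrays and 549, 572 and 538 in the TSR arrays (log2 fold change -1.18, standard error 0.05, adjusted p = 5.6e-07). Cd163 encodes the scavenger receptor for haemoglobin bound to haptoglobin. It had the smallest fall of the group, with signals of 1277, 1174 and 1181 in the control arrays and 861, 817 and 862 in the TSR arrays (log2 fold change -0.52, standard error 0.05, adjusted p = 8.1e-05). The values of Cd163 did not overlap between groups.

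Retnla, F13a1 and Pf4 encode secreted proteins of resident and alternatively activated macrophages, and all 3 fell. Retnla encodes RELM-alpha, a protein induced by interleukin-4, and which cells of the tissue gave its signal was not measured. Its signals were 13406, 14782 and 12455 in the control arrays and 6095, 6250.1 and 5644 in the TSR arrays. In each TSR array the level was less than that in any control array (log2 fold change -1.17, standard error 0.07, adjusted p = 3.7e-06), and after quantile normalization the log2 fold change was -0.91. Pf4, the gene of the chemokine CXCL4, gave 3031, 3110.5 and 3225 in the control arrays and 1530.0, 1552 and 1464 in the TSR arrays (log2 fold change -1.04, standard error 0.04, adjusted p = 7.3e-07). F13a1 encodes the A subunit of coagulation factor XIII, which cross-links fibrin, and fell from 3523 ± 144 to 2056 ± 61.8 (log2 fold change -0.78).

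Genes of lipid-associated macrophages did not move together. Itgax, the gene of CD11c, had signals of 113, 144 and 119 in the control arrays and 109, 74.6 and 87.8 in the TSR arrays and fell narrowly (log2 fold change -0.48, adjusted p = 0.043 from limma). The call was lost in 10 of the alternatives tried, with adjusted p between 0.050 and 0.13, among them each array left out in turn except TSR replicate 1. Gpnmb encodes a glycoprotein of lipid-laden macrophages and was at 335, 338 and 205 in the control arrays and 321, 311 and 287 in the TSR arrays. Control replicate 3 lay far below the other values of Gpnmb, the groups overlapped, and no change was called (log2 fold change 0.10, adjusted p = 0.67 from limma). Without control replicate 3 the log2 fold change was -0.14. Trem2, the lipid-sensing receptor gene of these cells, had signals of 15.2, 14.0 and 35.1 in the control arrays and 47.0, 42.5 and 52.8 in the TSR arrays by the brighter of its probe sets. All TSR values were above the control values, but the 25th percentile of signal lay between 20.8 and 25.2 over the arrays, and control replicates 1 and 2 were below it. Tested without the filter, the log2 fold change of this probe set was 1.27 with adjusted p = 0.051 from limma, and that of the dimmer probe set was 1.02 (adjusted p = 0.40). The dimmer one had signals of 5.02, 16.9 and 1.80 in the control arrays and 12.4, 10.5 and 9.74 in the TSR arrays, which overlapped.

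The resident-type genes were set against the pan-myeloid genes, here the 29 tested members outside the resident-type, lipid-associated and secreted groups, with the genes of all leukocytes included. For each array the log2 signals were taken relative to the control mean and the median over a group was formed. The pan-myeloid median was -0.68 in TSR replicate 1, -0.68 in replicate 2 and -0.69 in replicate 3. The resident-type median was -0.97, -0.94 and -1.01 in the same arrays, and that of Retnla, F13a1 and Pf4 was -1.03, -1.01 and -1.09. In the control arrays these 3 medians lay between -0.07 and 0.03. The lipid-associated median, over Itgax and Gpnmb alone, was between -0.31 and -0.01 after TSR and between -0.27 and 0.23 in control, so that the groups overlapped. Over all genes tested the TSR medians lay between 0.00 and 0.02.

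**Figure D2:**
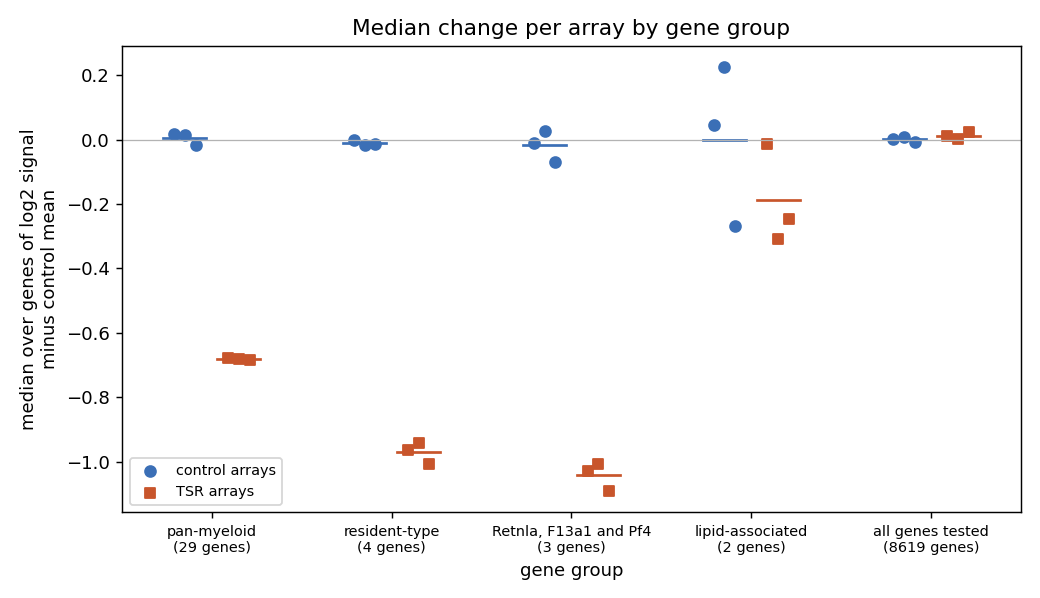
Median over the genes of a group of log2 signal minus the control mean (vertical axis), for each control array (circles) and TSR array (squares), with group means as lines. The squares of the resident-type genes (-1.01 to -0.94) lie below those of the pan-myeloid genes (-0.69 to -0.68), and the lipid-associated values overlap between groups.

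The resident-type median minus the pan-myeloid median changed by -0.27 from control to TSR on the log2 scale, with TSR arrays between -0.32 and -0.26 and control arrays between -0.03 and 0.00. No test was made of this difference, since the genes were chosen with results of these data known. Every resident-type gene had a mean signal above 773. Members above that signal had a median log2 fold change of -0.88, and the dimmer ones -0.57. The part of brightness in the difference between the medians was not tested. The difference did not hold for each resident-type gene. Within each array, the change of a gene was also taken relative to that of Adgre1, which cancels a constant scaling factor of the array but not a correction that varies with signal, such as quantile normalization. Since Adgre1 itself fell, 83.3% of all other genes tested lay above it in this measure without overlap, and 2.47% below. Relative to Adgre1, Folr2 changed by -0.61, Lyve1 by -0.42 and Mrc1 by -0.37 on the log2 scale, with every TSR array below every control array (two-sided exact permutation p = 0.1, below which 3 against 3 arrays cannot go). Cd163 differed by 0.06 relative to Adgre1, and its groups overlapped (exact permutation p = 0.2). Among the pan-myeloid genes 10 of 28 lay below Adgre1 in this way, 5 above and 13 overlapped. The lowest of these differences were those of Aif1 (-0.95), Fcgr2b (-0.88) and Cd52 (-0.66), outside the resident-type group. Gpnmb changed by 0.67 relative to Adgre1, Spi1 by 0.40, Clec7a by 0.38 and Mpeg1 by 0.27, each with all TSR arrays above control (exact permutation p = 0.1). Of 37 members set against Adgre1, 16 lay below and 6 above without overlap (2.47% and 83.3% of all genes), and after Benjamini-Hochberg adjustment the lowest p was 0.17. These permutation p-values decide nothing, since they cannot go below 0.1 and the genes were chosen with results of these data known.

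Of the members, 7 had several tested probe sets. For Fcgr2b, Coro1a and Lyve1 each tested probe set was called lower. For Csf1r the middle probe set by brightness fell like the brightest (log2 fold change -0.46), whereas the dimmest had signals of 609, 733 and 566 in the control arrays and 691, 685 and 752 in the TSR arrays (log2 fold change 0.16, adjusted p = 0.18 from limma). These values overlapped, and the probe sets of Csf1r gave estimates on both sides of 0. Laptm5 fell by the brighter pair, with log2 fold changes of -0.85 and -0.53, and did not pass by the dimmest (-0.35). The dimmer tested probe sets of Lcp1 (-0.23) and Msr1 (-0.26) did not pass either. The 6 probe sets below the filter, of Trem2, Msr1, Clec4n and Coro1a, had no adjusted p under 0.05 when tested without it.

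**Figure D3:**
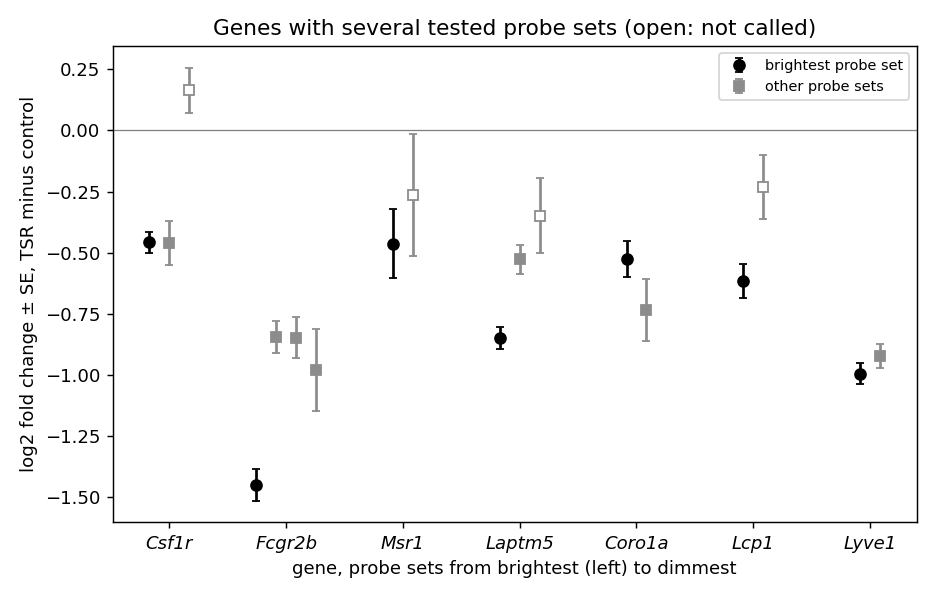
Log2 fold change with standard error (vertical axis) of each tested probe set of the 7 macrophage genes with several, from brightest (black circle) to dimmer ones (grey squares). Open symbols did not pass the test, and the dimmest probe set of Csf1r (0.16) is the only one above 0.

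The median change was larger in the brighter members, without a test of the difference. In the 19 members with mean signal above 773 the median log2 fold change was -0.88, and the range was -1.45 to -0.46. In the 19 dimmer members the median was -0.57 and the range -1.52 to 0.10. Across the 38 genes, which share arrays and are not independent, fold change and mean log2 signal had r = -0.33. All genes with a mean log2 signal of at least 12 had a median log2 fold change of -0.19, and their 5th percentile was -0.48. Csf1r (-0.46) lay inside this range and Lyz2 (-0.52) and Retnla (-1.17) below it. After quantile normalization Csf1r had -0.37 and Lyz2 -0.35, and both were still called lower.

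**Figure D4:**
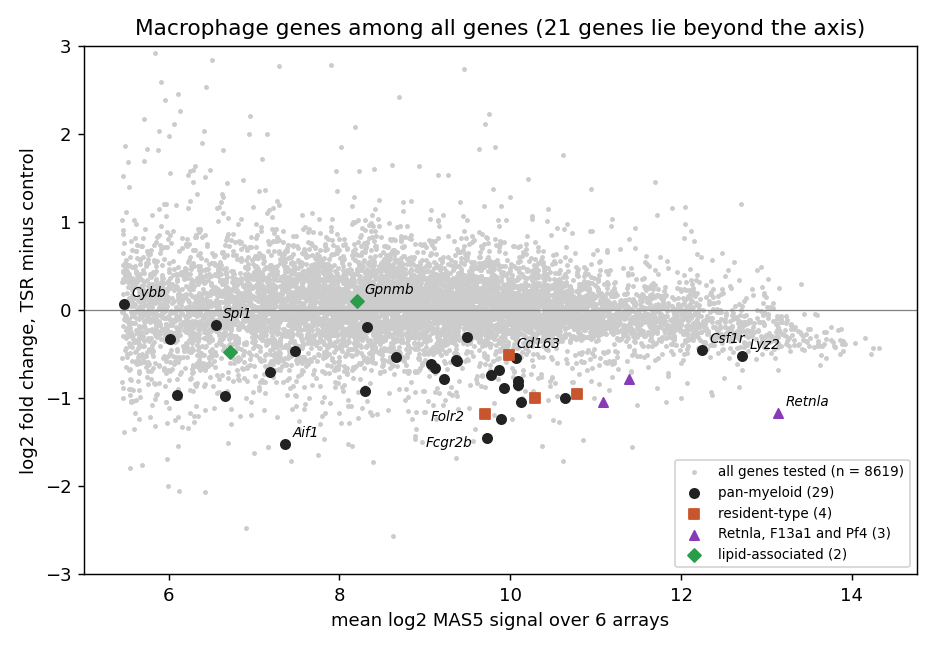
Log2 fold change, TSR minus control (vertical axis), against mean log2 signal (horizontal axis) for all 8619 genes tested (grey) and the macrophage genes by group. Of the members 36 lie below the median of all genes (0.01), Cybb and Gpnmb lie above it, and 21 other genes lie beyond the axis.

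Further genes of the macrophage pathways were taken from lists. Other genes of resident macrophages fell, 13 of 14 tested, with a median log2 fold change of -0.67. Cd209f and Cd209g, lectin genes related to DC-SIGN, had log2 fold changes of -1.35 and -1.28, and the eosinophil-attracting chemokine gene Ccl24 had -1.16. Selenop, which encodes the selenium carrier and is the brightest of the list, fell from 14823 ± 1113 to 11145 ± 802. Its log2 fold change of -0.41 lay above the 5th percentile (-0.48) of all genes with a mean log2 signal of at least 12. The gene that did not pass was Vsig4, a complement receptor gene (0.0012). Vsig4 was dim: with the dimmest 50% of probe sets left out it was no longer tested, and 13 of 13 genes were lower. After quantile normalization 12 of the 14 genes were lower and 2 did not pass. Of 11 genes of monocyte chemokines and their receptors 9 fell and 2 did not pass, and without the filter 9 of 13 fell and 4 did not pass, with a median of -0.74. Those that fell included Ccl6, from 4731 ± 131 to 1614 ± 78.9, and Ccl8, from 967 ± 37.4 to 163 ± 11.1, both chemoattractants of monocytes, and Ccl7 (log2 fold change -1.31). Ccl7 went from 91.4 ± 18.5 to 37.0 ± 8.94. It passed the filter only through its control level, and its fold is not exact. Of 8 toll-like receptors and their partners 5 fell, among them Ly86, which encodes the MD-1 partner of a toll-like receptor relative (-1.08), Tlr1 (-0.52) and Tlr7 (-0.49), and 3 did not pass. Without the filter 4 of 10 fell and 6 did not pass, where 14.4% of all genes were called lower.

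Of 9 tested signalling genes downstream of the Fc receptors, 4 fell, 0 rose and 5 did not pass. Their median log2 fold change was -0.41, beside -0.98 for the receptors and adaptors among the members, and this difference was not tested. Those that fell furthest were Lcp2, the adaptor SLP-76 (-0.64), Ptpn6, the phosphatase SHP-1 (-0.48, adjusted p = 0.041 from limma, with overlapping arrays), and Plcg2, a phospholipase (-0.43). Of the other oxidase subunits, Rac2, a small GTPase of blood cells, fell (-0.39, adjusted p = 0.029 from limma), and Cybc1, which helps assemble the membrane pair, did not pass (0.02). The growth factor axis and lineage factors had no common direction, with 3 higher, 4 lower and 6 not passing of 13. These counts were near the shares over all genes tested, 24.0% higher and 23.0% lower. Nr1h3, the oxysterol receptor LXR-alpha of macrophages and adipocytes, rose from 380.4 ± 43.0 to 637 ± 41.9, and Cebpa, also active in adipocytes, from 3648 ± 208 to 4798 ± 74.1. Mef2c (-0.63) and Runx1 (-0.54) fell.

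Other genes of lipid handling and the lysosome counted 3 higher, 6 lower and 6 not passing of 15, beside 24.0% higher and 23.0% lower over all genes. Ctsk, a cathepsin gene, fell (-0.87), as did the tetraspanin gene Cd9 (-0.46) and Lpl, the lipoprotein lipase gene that adipocytes express strongly (-0.39). Mmp12, the macrophage elastase gene, rose (0.69, adjusted p = 0.021 from limma). After quantile normalization this list counted 6 higher and 2 lower, with a median of 0.07 in place of -0.10.

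Markers of other white blood cells were measured on the same arrays. Of 13 T and NK cell genes with a probe set, 7 were bright enough to test, of which 4 fell, among them the granzyme gene Gzma (-0.92) and Cd2 (-0.71). Dendritic cell genes fell, 3 of 3 tested, among them Batf3 (-1.04) and Zbtb46 (-0.51), and neutrophil genes fell in 3 of 4, such as S100a9 (-1.21) and Camp (-0.99). Camp went from 71.9 ± 11.8 to 35.9 ± 1.19 and passed the filter on mean signal only through its control level. B cell genes were higher in 2 of 3 by their brightest probe sets, namely Ms4a1 (0.67) and the immunoglobulin gene Ighm (0.60). Ms4a1 went from 43.4 ± 5.72 to 68.9 ± 3.21 and passed the filter only through its TSR level. When the probe sets of a gene were averaged, 1 of 3 was higher. Ighm then had -0.04, so that its probe sets did not share a direction. Of 4 mast cell genes Kit rose (0.89) and 3 did not pass. Of 9 measured genes of dividing cells, 5 passed the filter on mean signal and fell, and some could pass only through their control level, such as Mki67, with means of 142 ± 11.8 to 34.7 ± 7.17 from control to TSR. Tested without the filter, 6 of the 9 fell and 3 did not pass, with estimates up to 0.40. Top2a, a further gene of the list, had 109.6, 124 and 126 in the control arrays and 43.9, 54.5 and 43.7 in the TSR arrays. Without the filter, the counts of lower genes were 4 of 13 for T and NK cells, 3 of 6 for dendritic cells and 3 of 8 for neutrophils. Those of higher genes were 2 of 6 for B cells and 1 of 8 for mast cells. Over all genes without the filter, 14.4% were lower and 16.2% higher. The part of these cells in the fall of the leukocyte genes was not tested.

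**Figure D5:**
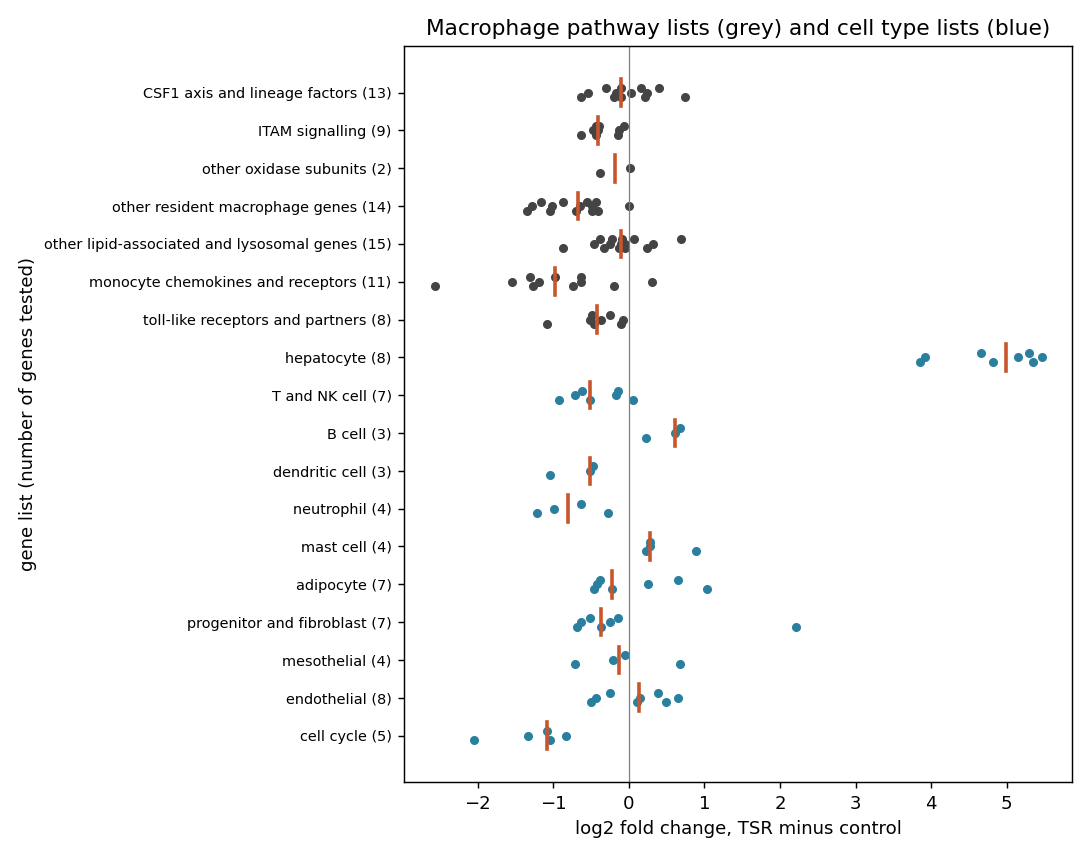
Log2 fold change, TSR minus control (horizontal axis), of each tested gene on the macrophage pathway lists (grey) and the cell type lists (blue), with the median of a list as a vertical line. The median of the 14 other resident macrophage genes lies at -0.67, and all tested hepatocyte genes lie far to the right. Genes dim in 1 group could pass the filter only through the other group, so that medians of lists with dim genes are not those of all their measured genes.

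Several measures of the whole samples moved with the groups. All 11 measured hepatocyte genes were higher in every TSR array than in every control array, with a summed signal of 393 to 449.9 in control and 12455 to 12967 after TSR. Alb, the albumin gene, rose from 129 ± 31.6 to 3205 ± 143, Serpina1c from 69.0 ± 8.27 to 3049 ± 185 and Bhmt from 20.7 ± 8.17 to 801 ± 17.2, and none was at 0 in control. The control signals of Bhmt (15.7, 30.1 and 16.2) lay around the 25th percentile of the arrays, so that its fold is not exact. Adipocyte genes, the check of the labelled tissue, were bright on all arrays, with a summed signal of 68838 to 82465 over 7 genes in control and 59070.1 to 69208 after TSR. Of these 7, 3 rose, among them Lep (0.65) and Slc2a4 (1.04), and 4 fell, with a median of -0.22, while after quantile normalization 3 rose and 0 fell. Of 7 stromal genes 4 fell, such as Col3a1 (-0.68), and Pi16 rose (2.21). Endothelial genes counted 3 higher (Tie1, 0.65) and 3 lower (Tek, -0.50) of 8, with a median of 0.13, and of 4 mesothelial genes Msln rose (0.68) and 2 fell, Wt1 furthest (-0.72). For beta-actin, the log2 signal of the 5′ control probe set minus that of the 3′ one, which follows RNA integrity and labelling, lay between -1.23 and -1.20 in control and at -0.67 in each TSR array. For Gapdh this difference lay between -0.60 and -0.48 in control and between 0.07 and 0.17 after TSR. In both, the 5′ signal relative to the 3′ signal was lower in the control arrays. The part of these measures in the change of the macrophage genes was not tested. Centring each array on its median moved the median log2 fold change of all genes by -0.11, and the members then had a median of -0.82 with 35 lower and 0 higher. Relative to the median of all genes, which centring leaves as it is by construction, the members' median was -0.73 under the authors' scaling and -0.73 after quantile normalization.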

How the data were processed

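Epididymal WAT RNA of 3 control and 3 TSR samples was hybridised to Affymetrix Mouse Genome 430A 2.0 arrays. The authors computed MAS5 signal intensities with software whose version is not given in the sources used here, and the deposited intensity values are on a linear scale with each array scaled to 1 target. The paper names RNAlater and a lipid tissue kit, the sample labels liquid nitrogen and Trizol.

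Probe sets were named from GEO's platform annotation, with 1 symbol for 20393, several for 691 and none for 1606. Signals were taken to log2. Left out were 64 control probe sets and, of all others, those in the lowest 35% by mean signal (below 43.8), in place of the authors' expression calls, and 14707 were tested with limma 3.58.1 in R 4.3.3 (intensity trend, 4.86 prior degrees of freedom, two-sided, Benjamini-Hochberg over all, threshold 0.05). Folds are ratios of mean signals. The methods' t-test, 2 other scalings, 2 other filters, a floor at the 25th percentile, limma without the trend, a replicate block, left-out arrays and means over the probe sets of a gene were alternatives. The computation was tested on simulated data. The number of arrays limits the precision. Median signals were 126 to 141, and log2 signals correlated with r of 0.991 to 0.993 within groups and 0.962 to 0.965 across them.

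Members, gene groups and lists were chosen with earlier results of these data known. Named were all members, and from each list the brightest gene and up to 3 with the largest change (up to 2 and Alb for cell types). Vsig4 was named after its value was seen.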

Additional observations from a re-analysis of the deposited data

How the results depend on the processing

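The number of members called lower was 33 and lay between 30 and 35 under all alternatives, with 31 to 33 when single arrays were left out, and the number called higher was 0 throughout. With the replicate number as a block 32 were lower and 0 higher, and Itgax lost its call (adjusted p = 0.060). Same-numbered samples deviated together with r = 0.02, 0.19 and 0.17, and 4 of 6 samples correlated best with their own number. These values do not settle whether the numbers mark pairs, and the main test treated the samples as unpaired. The difference between the resident-type and pan-myeloid medians was -0.27, and became -0.22 after quantile normalization and -0.31 to -0.26 without single arrays. The uncalled genes that changed sign were Cybb, with -0.038 after quantile normalization and -0.036 after median centring and -0.16 to 0.28 without single arrays, and Gpnmb, with -0.0056 after median centring and -0.14 to 0.22 without single arrays. Msr1 lay between -0.62 and -0.36 and Itgax between -0.62 and -0.35 without single arrays. When 50% of probe sets were filtered out as dim, 5 chemokine and receptor genes and 3 toll-like genes were lower, since fewer genes were tested. Signals near the 25th percentile of an array limit what can be said of Trem2 and Cybb.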
